A study of Mus musculus with 6 samples.

Results

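Transcription factors that give a neuron its identity were examined for 2 histone marks at their start sites in cultured mouse neurons and in the neural stem cells (NSCs) from which these neurons were made. The list named 38 genes, and the 35 found in at least 1 of the deposited gene tables were scored, out of 18778 genes in those tables. Nhlh1, Nhlh2 and Phox2a were in no table and were left out. The 35 are the zinc finger genes Myt1, Myt1l, St18, Insm1, Scrt1 and Scrt2, 5 POU genes, 9 LIM homeodomain genes, 8 other homeodomain genes, 4 Ebf genes, and Sp8, Sp9 and Nr4a2.

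The neurons, taken on differentiation day 11, were RedStar-positive cells from a flow sorter, RedStar being a red fluorescent protein driven by the Tau (Mapt) promoter. The NSCs were at day 0 and RedStar negative, and were grown with FGF2 and EGF. Both were of the C57BL/6 strain, descended from embryonic stem cells and were at passages 25 to 30. There were 4 immunoprecipitated libraries, 1 for each mark in each cell type, each with peaks called against the input of the same cells, so no difference below has a replicate check. The design gives 1 chromatin preparation for each cell type, and in a population of cells a mark on fewer cells and a weaker mark on all cells cannot be told apart.

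H3K4me3 is laid down at start sites that are active or poised, and most CpG-rich promoters carry it. H3K27me3 is the product of Polycomb repressive complex 2, which keeps developmental regulators silent and often covers such genes in broad domains. Genes of transcription factors that specify neuron types are well-known Polycomb targets in embryonic stem cells, where many carry both marks at once.

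H3K27me3 was more frequent at these genes than over the tables as a whole. It lay within 1 kb of the start site of 17 of the 35 genes in neurons and 21 in NSCs, whereas 17.9% of all genes carried it in neurons and 19.2% in NSCs. H3K4me3 stood at 23 of the 35 in neurons and 25 in NSCs, close to the 61.7% and 70.4% of all genes. Scored by the peak that the authors' deposited table pairs with each gene, which is often a farther one, fewer genes were marked. H3K4me3 was then at 12 of the 35 in neurons (51.6% of all genes) and 17 in NSCs (58.5%), with 8 genes lost (10.6%) and 3 gained (3.77%). These H3K4me3 losses and gains compare unlike limits. The largest false discovery rate among the paired peaks was 0.000956 in neurons and 9.74e-21 in NSCs. H3K27me3 was at 5 in neurons (5.09%) and 13 in NSCs (7.74%), with 8 lost (4.43%) and 0 gained (1.77%). Both marks were at 2 in neurons (0.831%) and 8 in NSCs (2.32%). The share with H3K27me3 stayed above that of all genes in both cell types, and the peak lists are used from here on.

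By the peak lists, both marks were called at 8 of the genes in neurons, against 4.59% of all genes, and at 14 in NSCs, against 8.53%. The list was chosen with earlier results of these data known, so these shares describe it and test nothing.

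**Figure D1:**
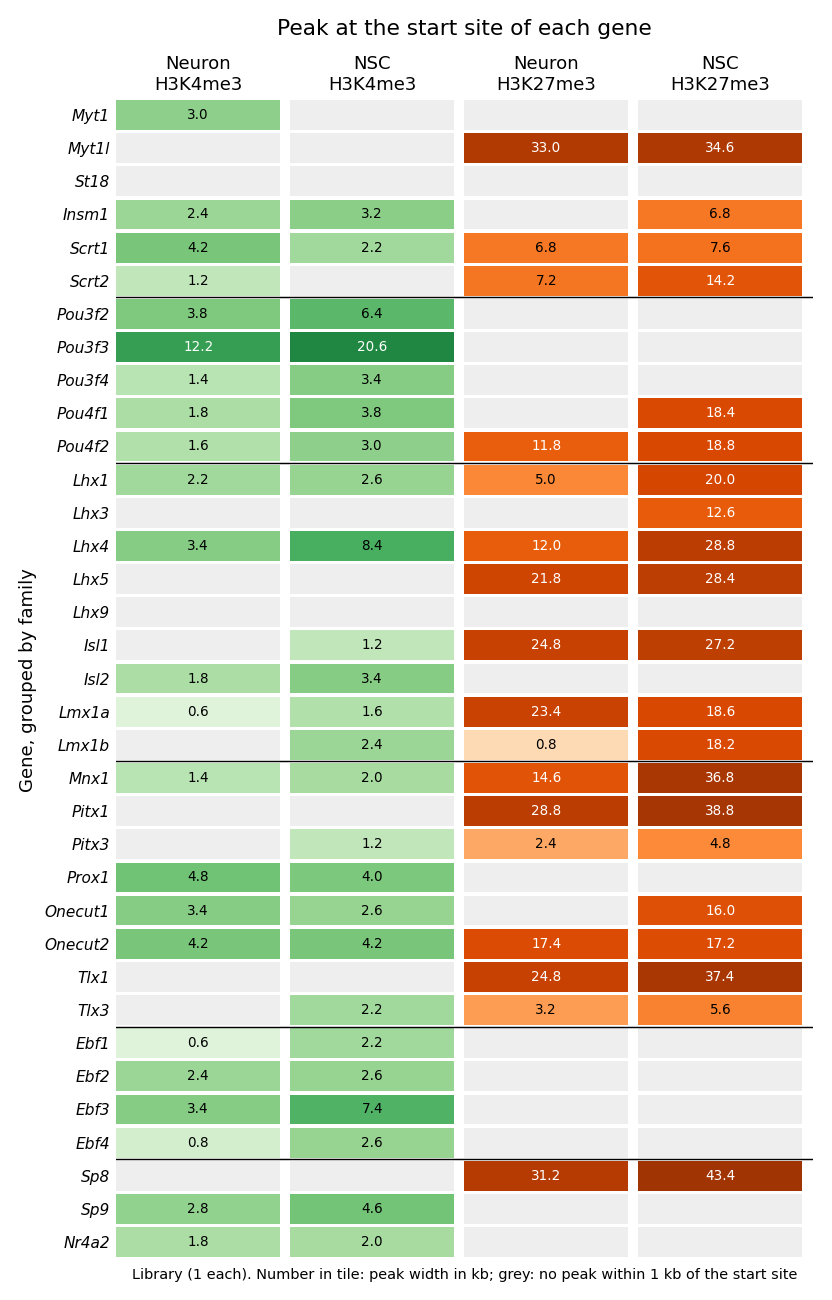
Width in kb of the peak at the start site of each of the 35 genes, with 1 column for each library (neuron left of NSC for each mark) and rows grouped by family. Green is H3K4me3, orange is H3K27me3, a darker tile is a wider peak, the number in a tile is the width, and grey means no peak within 1 kb. H3K27me3 fills 17 tiles in neurons and 21 in NSCs, and no Ebf gene has any.

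The calls fell into a few patterns. H3K4me3 alone in both cell types was the pattern of 11 genes, among them all 4 Ebf genes and all 3 Pou3f genes, against 54.9% of all genes. H3K27me3 alone in both was the pattern of Lhx5, Myt1l, Pitx1, Sp8 and Tlx1, against 7.65% of all genes. Of the 14 genes with both marks in NSCs, 7 kept both in neurons, 4 had H3K27me3 alone and 3 had H3K4me3 alone. Among all 1601 genes with both marks in NSCs these outcomes made up 36.9%, 37.3% and 20.9%, and 4.93% had neither mark left. Lhx9 and St18 had neither mark within 1 kb in either cell type.

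Promoter windows of genes with these patterns come from RefSeq, assembly GRCm38.p6, and run from 250 bases before to 50 after a start site. The peaks are on the older build mm9, and the windows were matched by gene symbol only. Whether a window holds the start site that was scored was not checked, and the calls given are those of the scored site. Of the 35 genes 27 had at least 1 window. For each of 6 patterns, 1 gene is printed, chosen among those with 1 window by the widest NSC peak. The peak was of H3K4me3 for Pou3f3, Lmx1b and Lhx9, where for Lhx9 it is the nearest one, and of H3K27me3 for Pou4f1, Mnx1 and Tlx1. Each is given 5′ to 3′ on its own strand, with every CpG in capitals. Pou3f3 (chr1:42695518-42695817, plus strand) had H3K4me3 alone in both cell types. Pou4f1 (chr14:104467950-104468249, minus strand) had H3K4me3 alone in neurons and both marks in NSCs. Lmx1b (chr2:33641049-33641348, minus strand) had H3K27me3 alone in neurons and both in NSCs. Mnx1 (chr5:29478421-29478720, minus strand) had both marks in both. Tlx1 (chr19:45150465-45150764, plus strand) had H3K27me3 alone in both, and Lhx9 (chr1:138842395-138842694, minus strand) had neither at its scored start site. The nearest H3K4me3 peak lay downstream of that Lhx9 site, 4354 bp away in neurons and 5554 bp in NSCs.
Pou3f3: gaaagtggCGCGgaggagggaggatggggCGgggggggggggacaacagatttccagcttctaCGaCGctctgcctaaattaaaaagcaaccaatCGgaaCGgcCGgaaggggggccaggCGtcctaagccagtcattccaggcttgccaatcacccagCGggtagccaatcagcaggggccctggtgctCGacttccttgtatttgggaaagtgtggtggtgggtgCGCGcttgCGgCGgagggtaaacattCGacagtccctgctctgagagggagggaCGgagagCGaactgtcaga
Pou4f1: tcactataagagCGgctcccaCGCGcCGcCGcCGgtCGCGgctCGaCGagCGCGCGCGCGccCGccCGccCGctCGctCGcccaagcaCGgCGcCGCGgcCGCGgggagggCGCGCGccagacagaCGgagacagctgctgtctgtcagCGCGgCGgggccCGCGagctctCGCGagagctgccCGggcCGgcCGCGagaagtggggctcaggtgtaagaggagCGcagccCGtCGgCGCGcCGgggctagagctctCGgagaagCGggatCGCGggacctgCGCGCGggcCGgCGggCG
Lmx1b: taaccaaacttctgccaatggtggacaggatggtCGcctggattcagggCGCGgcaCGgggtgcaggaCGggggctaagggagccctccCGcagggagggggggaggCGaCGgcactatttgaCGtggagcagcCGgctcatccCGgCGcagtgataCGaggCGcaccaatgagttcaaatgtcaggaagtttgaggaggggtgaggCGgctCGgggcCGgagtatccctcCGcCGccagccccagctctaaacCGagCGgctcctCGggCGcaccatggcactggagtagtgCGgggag
Mnx1: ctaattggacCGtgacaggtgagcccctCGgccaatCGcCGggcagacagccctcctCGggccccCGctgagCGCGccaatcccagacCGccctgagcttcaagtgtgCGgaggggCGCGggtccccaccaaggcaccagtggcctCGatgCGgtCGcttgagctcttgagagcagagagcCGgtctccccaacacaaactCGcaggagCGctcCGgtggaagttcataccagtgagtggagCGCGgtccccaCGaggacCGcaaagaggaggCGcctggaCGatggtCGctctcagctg
Tlx1: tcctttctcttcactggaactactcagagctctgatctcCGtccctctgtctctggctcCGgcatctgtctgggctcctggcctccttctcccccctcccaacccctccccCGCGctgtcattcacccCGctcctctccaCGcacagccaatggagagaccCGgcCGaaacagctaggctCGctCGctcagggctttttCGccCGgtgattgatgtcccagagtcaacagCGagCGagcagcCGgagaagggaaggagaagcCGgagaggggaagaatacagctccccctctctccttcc
Lhx9: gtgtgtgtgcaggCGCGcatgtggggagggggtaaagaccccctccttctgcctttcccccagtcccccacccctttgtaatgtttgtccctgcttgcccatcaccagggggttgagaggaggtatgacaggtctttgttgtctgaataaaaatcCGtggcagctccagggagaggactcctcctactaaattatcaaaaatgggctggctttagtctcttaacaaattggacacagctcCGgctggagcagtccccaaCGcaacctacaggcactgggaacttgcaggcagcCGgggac

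The Pou4f1 window held 57 CpGs in its 300 bases and the Lhx9 window 6. Between them stood Mnx1 with 26, Lmx1b with 24, Pou3f3 with 18 and Tlx1 with 16. Over the 26 windows of the 22 genes with H3K4me3 in either cell type the median was 21.5 CpGs, and over the 12 windows of the 5 genes without it 10.5. For all genes of the tables with a window these medians were 22 and 6. Several windows of the same gene were counted separately. Among the genes without H3K4me3, the windows of Myt1l held 4 to 13 CpGs, those of Sp8 2 to 32 and those of Lhx3 13 and 28. The 3 windows of Myt1, which had H3K4me3 in neurons alone, held 1 or 2 CpGs each, the fewest of the genes with that mark.

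A search of the windows on both strands gave matches to 6 short motifs. The GC box GGGCGG was in 21 of the 38 member windows (55.3%), against 35.7% of all 32851 windows. All windows are an unlike background, as their median share of G and C was 52.7%. It was 61.0% for the member windows and 60.3% for genes of the tables, over which the motifs were not counted. The E-box CAGCTG, bound by proneural bHLH factors, was in 13.2% against 16.3%. TATAAA was in 10.5% against 13.6%, and TAATTA, a core of homeodomain sites, in 5.26% against 5.29%. The remaining 2 motifs are the left and right parts of RE1, the element bound by REST, a repressor of neuronal genes outside neurons. The left part TTCAGCACC was in 1 member window against 0.371% of all windows, and the right part, searched with any base at 1 position, in 2, against 0.521%.

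Both RE1 parts met in a window of Lhx3 (chr2:26208200-26208499, minus strand). They lay 2 bases apart on the gene's strand, from base 208 to base 228, and this was the 1 window of 32851 that held both in that order and spacing. The 40 bases around them are printed with the 2 parts in capitals. A match of letters is a description and not a binding site.
Lhx3: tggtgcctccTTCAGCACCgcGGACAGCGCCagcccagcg

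H3K4me3 calls differed between the cell types at 6 of the 35 genes. Gained means a peak within 1 kb of the start site in neurons and none in NSCs, and lost the reverse. Myt1 and Scrt2 gained it, 2 of 35 against 0.831% of all genes and 2.81% of the genes without it in NSCs. Both gains rest on neuronal peaks of 26 to 84 reads. With peaks of an FDR (false discovery rate) under 1e-20, 0 gains were left, against 0.186% of all genes. Isl1, Lmx1b, Pitx3 and Tlx3 lost it, 4 of 35 against 9.55% of all genes. Of the 25 genes with the mark in NSCs these were 4, against 13.6% of all such genes. The neuron H3K4me3 library was the less enriched. Where an H3K4me3 peak had identical bounds in the neuron and NSC lists, as 397 did, the neuron-to-NSC ratio was 0.399 for immunoprecipitated reads and 0.775 for input. The part of this in the lost calls was not tested.

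Myt1, a zinc finger factor that promotes neuronal differentiation, gained the mark at its start site on chromosome 2 at 181498037. The neuronal peak was 3000 bp wide and held 84 immunoprecipitated reads over 27 input reads, while the nearest NSC peak lay 24163 bp away. Over the 64466 bp of the gene there were 3 neuronal H3K4me3 peaks with 256 reads in all, against 1 NSC peak with 58 reads. H3K27me3 was far from it in both cell types, at 88838 bp in neurons and 88638 bp in NSCs. Myt1 was thus marked at its start site in neurons alone, with no H3K27me3 peak over the gene in either cell type.

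Scrt2, a Snail-family repressor made in newborn neurons, gained a 1200 bp peak that held 26 reads over an input of 4. The nearest NSC peak of this mark was 23535 bp away. Its neuronal H3K27me3 domain was 7200 bp wide, held 180 reads over 62 and ended 466 bp before the start site. In NSCs the domain covered the start site, with 14200 bp and 400 reads over 98. Of the 10 kb centred on the Scrt2 start site, H3K27me3 peaks covered 45.4% in neurons and 92.0% in NSCs.

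The 4 losses were of small NSC peaks that overlapped H3K27me3 domains. Isl1, the LIM homeodomain factor of motor and sensory neurons, had no neuronal H3K4me3 peak closer than 712104 bp, against an NSC peak of 1200 bp that held 45 reads over 7. Lmx1b, needed for dopaminergic and serotonergic neurons, had no neuronal peak closer than 8232 bp, against 96 reads over 17 in an NSC peak of 2400 bp, which also held the start site of ENSMUSG00000052951, 682 bp away on the other strand. Pitx3, of midbrain dopaminergic neurons, had its nearest neuronal peak at 3385 bp, against an NSC peak of 1200 bp with 118 reads over 17. Tlx3, of dorsal spinal cord neurons, had its nearest neuronal peak at 1942 bp, against an NSC peak of 2200 bp with 61 reads over 19. A neuronal peak thus remained near Pitx3 and Tlx3 and not near Isl1. The NSC peaks of the 4 genes held 45 to 118 reads, against 86 to 2065 in the 21 genes that kept the mark. Over all genes the median was 72 reads where the mark was lost and 250 where it was kept.

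The POU genes all carried H3K4me3 in both cell types. Pou3f3, a factor of cortical neurons also known as Brn1, had the widest peak of the set, 12200 bp with 566 reads over 167 in neurons and 20600 bp with 2065 reads over 246 in NSCs. Pou3f2 (Brn2), used to turn other cells into neurons, had 3800 bp with 151 reads over 42 in neurons and 6400 bp with 559 over 59 in NSCs. Pou3f4, on the X chromosome, had 66 reads over 8 in neurons and 269 over 24 in NSCs. All 3 stood at least 66320 bp from any H3K27me3 peak in both cell types. The Pou3f3 peaks also spanned the start site of 2610017I09Rik on the other strand, 4031 bp away, so their width is not that of Pou3f3 alone. Those of Pou3f2 likewise held the start site of ENSMUSG00000073984, 3782 bp away.

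The Ebf genes, whose helix-loop-helix factors act in migrating and differentiating neurons, were likewise free of H3K27me3 at the start site. Ebf3 had the widest H3K4me3 peak of the 4, with 3400 bp and 118 reads over 20 in neurons and 7400 bp and 458 reads over 56 in NSCs. Ebf1 had 600 bp with 20 reads over 6 in neurons and 2200 bp with 171 over 26 in NSCs. Ebf4 had 800 bp with 27 reads over 3 in neurons and 2600 bp with 161 over 28 in NSCs. In neurons the Ebf1 and Ebf4 peaks were among the narrowest of the set. The Ebf2 peak began 871 bp after the start site in neurons, with 59 reads over 22, and 471 bp after it in NSCs, with 120 over 15. The closest H3K27me3 peak to any of these start sites was at Ebf3, 7072 bp away in neurons and 7472 bp in NSCs.

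Prox1, Sp9, Nr4a2 and Isl2 made up the rest of the genes with H3K4me3 alone. Prox1, of hippocampal granule neurons, had 4800 bp with 269 reads over 69 in neurons and 4000 bp with 493 over 47 in NSCs. Nr4a2 (Nurr1), the nuclear receptor of dopaminergic neurons, had 85 reads over 17 in neurons and 267 over 14 in NSCs, where its fold over input of 19.5, the authors' value, was the highest of the set. Sp9, of forebrain interneurons, had 101 reads over 27 in neurons and 336 over 31 in NSCs. Isl2, of motor neurons, had 46 reads over 12 in neurons and 108 over 30 in NSCs. Related genes therefore differed, since Isl1 and Sp8 lay in H3K27me3 domains in both cell types and Isl2 and Sp9 did not.

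H3K4me3 reads per kb of peak were lower in neurons at all 21 genes marked in both cell types, as they were at most genes. The ratio of neurons to NSCs had a median of 0.494 for these 21, ranging from 0.281 at Scrt1 to 0.805 at Isl2, and of 0.419 for all 11424 genes marked in both. The ratio of reads in the whole peak had a median of 0.318 for the 21 and 0.306 for all. Peaks were narrower in neurons at 17 of the 21, with a median width ratio of 0.594 against 0.733 for all genes. The exceptions were Scrt1, Onecut1 and Prox1, which were wider in neurons, and Onecut2, which was equal.

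**Figure D2:**
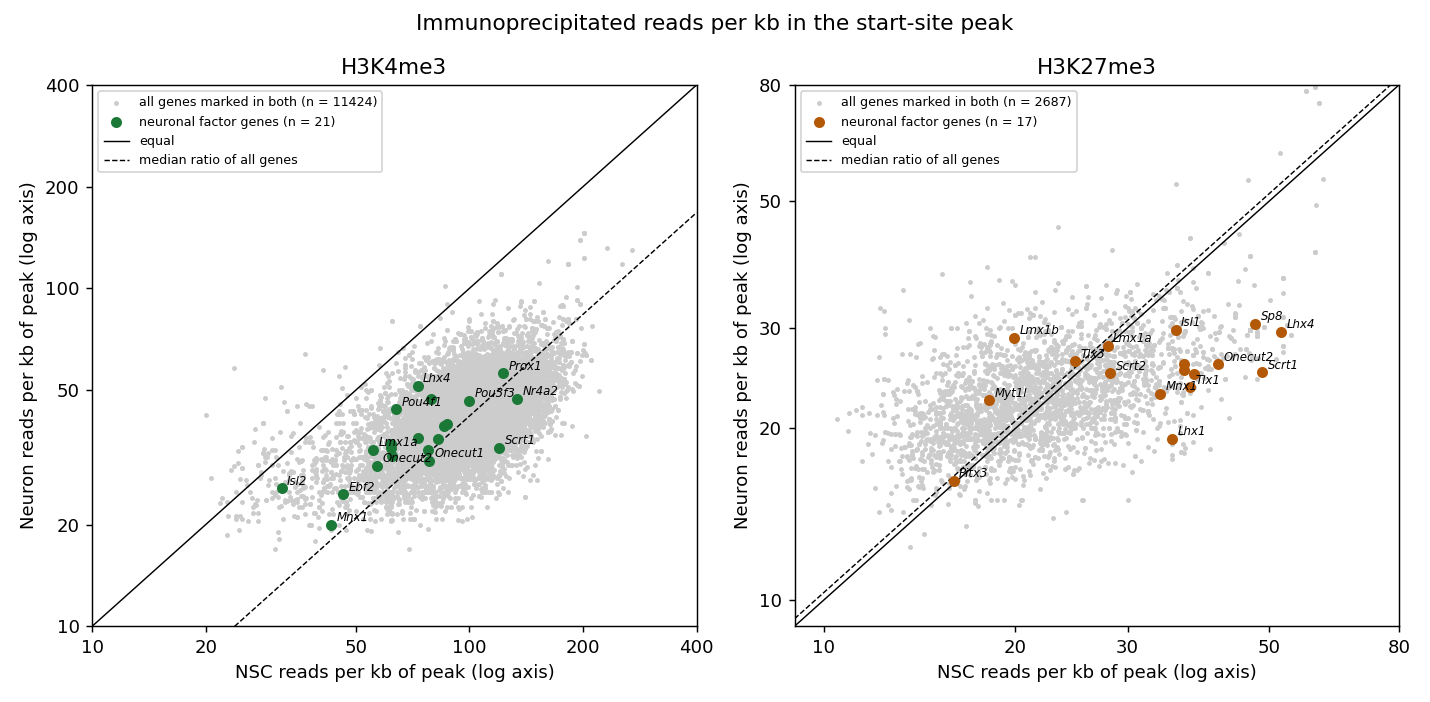
Immunoprecipitated reads per kb of the start-site peak in neurons (vertical) and NSCs (horizontal), both on log axes, for genes marked in both cell types. Coloured points are the neuronal factor genes, grey points all genes, the solid line equality and the dashed line the median ratio of all genes, and 3 genes for H3K4me3 and 11 for H3K27me3 lie outside the axes. For H3K4me3 the median ratio was 0.494 for the factor genes and 0.419 for all genes, and for H3K27me3 it was 0.689 and 1.03. Among NSC H3K27me3 domains of 30 reads per kb or more it was 0.641 and 0.754.

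H3K27me3 calls differed at 4 genes, Insm1, Onecut1, Pou4f1 and Lhx3, and all were losses in neurons. These were 4 of 35, against 4.85% of all genes, and 4 of the 21 with the mark in NSCs, against 25.3% of all such genes. Gains numbered 0 of 35, against 3.56% of all genes and 4.4% of those without the mark in NSCs. At each of the 4 a neuronal H3K27me3 peak still lay within 10 kb of the start site. Of their NSC domains, the one at Pou4f1 spanned the start site and the others ended or began within 1 kb of it. All 21 NSC domains were overlapped by a neuronal H3K27me3 peak, against 85.5% of the 3598 genes with an NSC domain. An overlap of 1 bp was enough, so wide domains were overlapped more often. Of all 1507 genes with an NSC domain of 10 kb or more, only 21 had no neuronal peak in it, and 17 genes of the set had domains that wide.

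Pou4f1 (Brn3a), the POU factor of sensory neurons, showed the widest difference in coverage. Its start site is on chromosome 14 at 104867216 (mm9). In neurons the nearest H3K27me3 peak began 6217 bp downstream, past the gene's end, and was 13000 bp wide with 261 reads over 107. In NSCs the start site lay inside a domain from 104854000 to 104872399 with 482 reads over 151 input reads. H3K27me3 peaks thus covered 0% of the 10 kb around the start site in neurons and 100% in NSCs. H3K4me3 was called at Pou4f1 in both, with 79 reads over 10 in neurons and 243 over 32 in NSCs.

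Onecut1 (HNF6), a homeodomain factor of motor neurons, horizontal cells and liver, had a domain on 1 side in neurons and on both sides in NSCs. In neurons an upstream domain of 17400 bp with 499 reads over 122 ended 2329 bp before the start site, and none was called downstream within 25 kb. In NSCs the upstream domain ended 329 bp before the start site and held 617 reads over 119, and the downstream one began 472 bp after it and held 247 over 129. The neuronal H3K4me3 peak of Onecut1 was 3400 bp wide and ran downstream from base 72, whereas the NSC peak of 2600 bp spanned the start site.

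Insm1, a zinc finger factor of newborn neurons and their progenitors, had its first neuronal H3K27me3 peak 1353 bp downstream, with 30 reads over 8. In NSCs a domain of 6800 bp began 753 bp downstream, with 119 reads over 46. Lhx3, which with Isl1 specifies motor neurons, had a neuronal domain of 13600 bp beginning 1370 bp downstream, with 397 reads over 85, and an NSC domain of 12600 bp beginning 770 bp downstream, with 443 over 92. At both genes the edge moved by a few of the 200 bp steps in which peaks were called, and so crossed the 1 kb limit. H3K4me3 was at Insm1 in both cell types, with 86 reads over 17 in neurons and 264 over 22 in NSCs, and at Lhx3 in neither.

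**Figure D3:**
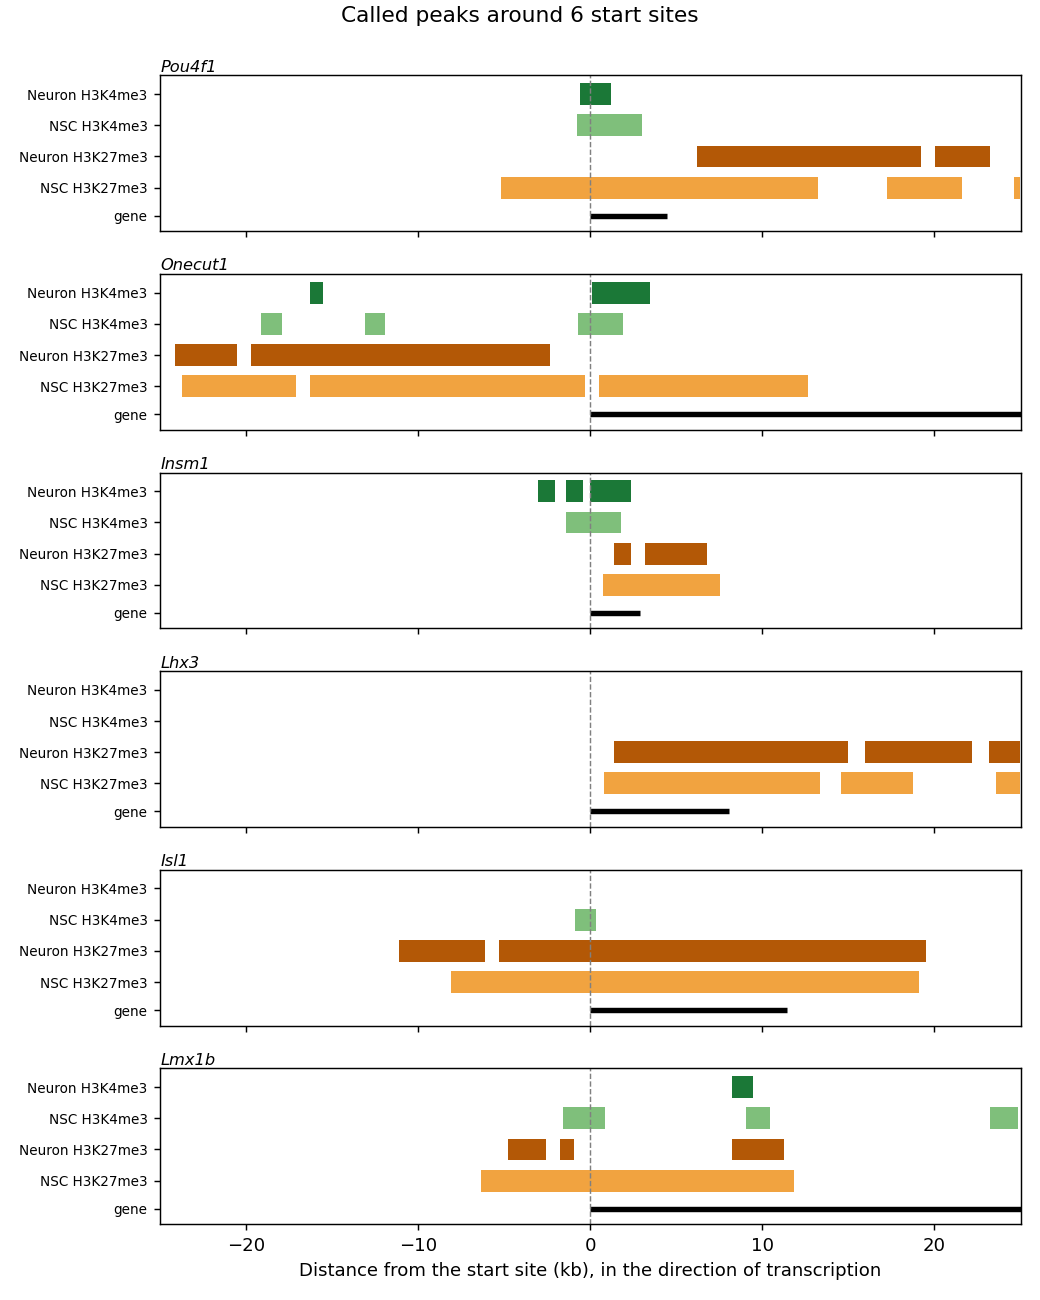
Called peaks within 25 kb of 6 start sites, with distance in kb in the direction of transcription and 1 row for each library, neuron above NSC. The black bar is the gene, drawn to the right edge where it runs past 25 kb. The neuronal H3K27me3 domain of Pou4f1 begins 6217 bp downstream and the NSC one spans the start site, whereas at Isl1 the domains of both cell types span it.

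Genes that kept both marks had domains that split or drew back around the start site, or stayed in place. At Lhx1, of cerebellar and spinal neurons, the flanking neuronal peaks stopped 677 bp before the start site, with 96 reads over 47, and resumed 1124 bp after it, with 200 over 75. In NSCs 1 domain of 20000 bp with 704 reads over 164 spanned it. At Lhx4, a motor neuron gene on chromosome 1, neuronal domains ended 793 bp before and began 608 bp after the start site, against 1 NSC domain of 28800 bp with 1502 reads over 388 that spanned it. The Lhx1 and Lhx4 start sites were therefore outside any H3K27me3 peak in neurons and inside one in NSCs. The unnamed gene ENSMUSG00000087211 starts 239 bp from Lhx1 on the other strand and shares its H3K4me3 peaks.

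Mnx1, the homeodomain factor that defines motor neurons with Isl1, kept its start site inside the mark in both. Its neuronal domain at the start site was 14600 bp with 336 reads over 81, and its NSC domain 36800 bp with 1240 over 293. In neurons 4 peaks overlapped that NSC domain, covered 79.3% of it and held 681 reads in all. Pou4f2 (Brn3b), of retinal ganglion cells, had 11800 bp with 299 reads over 88 in neurons and 18800 bp with 691 over 177 in NSCs. That NSC domain was overlapped by 2 neuronal peaks, which covered 94.7% of it and held 408 reads in all. Lmx1a, of midbrain dopaminergic neurons, was wider in neurons, with 23400 bp and 653 reads over 264 against 18600 bp and 519 over 209 in NSCs. Its fold over input, the authors' value, was lower in neurons, 2.60 against 3.47. Lmx1a is on chromosome 1, with Pou3f3, Lhx4, Prox1, St18 and Lhx9, where input reads per kb inside H3K27me3 peaks were 1.48 times the median autosome in neurons and 1.46 times in NSCs, and the part of this in the result was not tested.

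Scrt1, a Snail-family repressor of neurons, and Onecut2 had the mark on 1 side of the start site. The Scrt1 domain held 171 reads over 67 in neurons and 371 over 52 in NSCs, and the authors' fold of 9.97 in NSCs was the highest of the set in that library. Its H3K4me3 peak held 142 reads over 39 in 4200 bp in neurons and 265 over 18 in 2200 bp in NSCs. The Onecut2 domain ended 803 bp from the start site in both cell types, with 451 reads over 118 in neurons and 715 over 146 in NSCs. Onecut2 thus kept the same edge where its paralog Onecut1 had lost its downstream domain.

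The genes with H3K27me3 alone had long domains, and those of Sp8, Pitx1 and Tlx1 were the 3 longest of the set in NSCs. Sp8, a zinc finger factor of olfactory bulb interneurons and limb, had 31200 bp with 953 reads over 237 in neurons and 43400 bp with 2067 over 354 in NSCs. Pitx1, of pituitary and hindlimb, had 28800 bp with 746 reads over 152 in neurons and 38800 bp with 1427 over 357 in NSCs. Tlx1, the homeobox gene of spleen and dorsal spinal cord, had 24800 bp with 586 reads over 143 in neurons and 37400 bp with 1407 over 302 in NSCs. Lhx5, a forebrain and hindbrain LIM gene, had 21800 bp with 542 over 104 in neurons and 28400 bp with 1082 over 199 in NSCs. All 4 start sites were inside the domain in both cell types. The neuronal widths and reads given are of the start-site peak alone. Counted together, the neuronal peaks overlapping the NSC domain held 1185 reads at Sp8, 970 at Pitx1, 1066 at Tlx1 and 691 at Lhx5. In that order they covered 90.3%, 95.4%, 87.2% and 95.1% of the NSC domain. H3K4me3 peaks past the 1 kb limit lay inside the NSC domains of Sp8, Pitx1 and Lhx5. The nearest was 1736 bp from the Sp8 start site with 33 reads over 10, 3814 bp from that of Pitx1 with 26 over 10, and 4021 bp from that of Lhx5 with 48 over 7. At Tlx1 it was 69995 bp away. In neurons the nearest H3K4me3 peak was farther at each of these genes, at 9665 bp or more.

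Myt1l, which represses non-neuronal genes in neurons, was the one of this group with more reads in neurons. Its domain was 33000 bp with 738 reads over 239 in neurons and 34600 bp with 628 over 273 in NSCs. The authors' fold was close, 3.243 in neurons and 3.215 in NSCs. Over the 385907 bp of the gene, H3K27me3 peaks covered 32.4% in neurons, in 25 peaks, and 28.2% in NSCs, in 18. H3K4me3 peaks over the gene numbered 0 in neurons and 4 in NSCs, and an NSC peak with 41 reads over 6 lay 7002 bp before the start site. Sorted neurons therefore had no H3K4me3 peak over Myt1l detectable at this depth, while its family member Myt1 had one at its start site.

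The third member of that family, St18, had no peak within 1 kb but differed along the gene. Over its 373710 bp there were 6 neuronal H3K4me3 peaks with 128 reads and 0 NSC peaks. H3K27me3 covered 24.0% of the gene in neurons and 15.6% in NSCs, with the nearest domain 2688 bp from the start site in both. St18 lies on chromosome 1, where input reads were raised. Lhx9, also on chromosome 1, had its nearest H3K4me3 peak at 4354 bp in neurons, with 33 reads over 14, and at 5554 bp in NSCs, with 54 over 25, and no H3K27me3 within 358447 bp in either cell type.

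At the 4 genes that lost H3K4me3, an H3K27me3 peak remained within 1 kb of the start site. It reached the start site at Isl1 and Pitx3, at Pitx3 with an FDR of 0.00037. At Lmx1b and Tlx3 it lay 969 and 942 bp away, so with a window of 500 bp both count as losses. Isl1 kept a domain across its start site, 24800 bp with 738 reads over 163 in neurons and 27200 bp with 970 over 201 in NSCs. Lmx1b had 3 short neuronal peaks, the closest with 23 reads over 3 and ending 969 bp before the start site, against an NSC domain of 18200 bp with 363 reads over 147, of which they covered 33.0%. Pitx3 had 39 reads over 23 in 2400 bp in neurons and 77 over 50 in 4800 bp in NSCs, where the authors' fold was 1.78 and 2.15. Tlx3 had 84 reads over 22 in 3200 bp in neurons and 139 over 48 in 5600 bp in NSCs, with a fold of 4.01 and 4.05. In neurons 7 of the 17 H3K27me3 calls, those of Lmx1b, Tlx3, Scrt1, Scrt2, Lhx1, Lhx4 and Onecut2, rest on peaks that do not reach the start site.

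**Figure D4:**
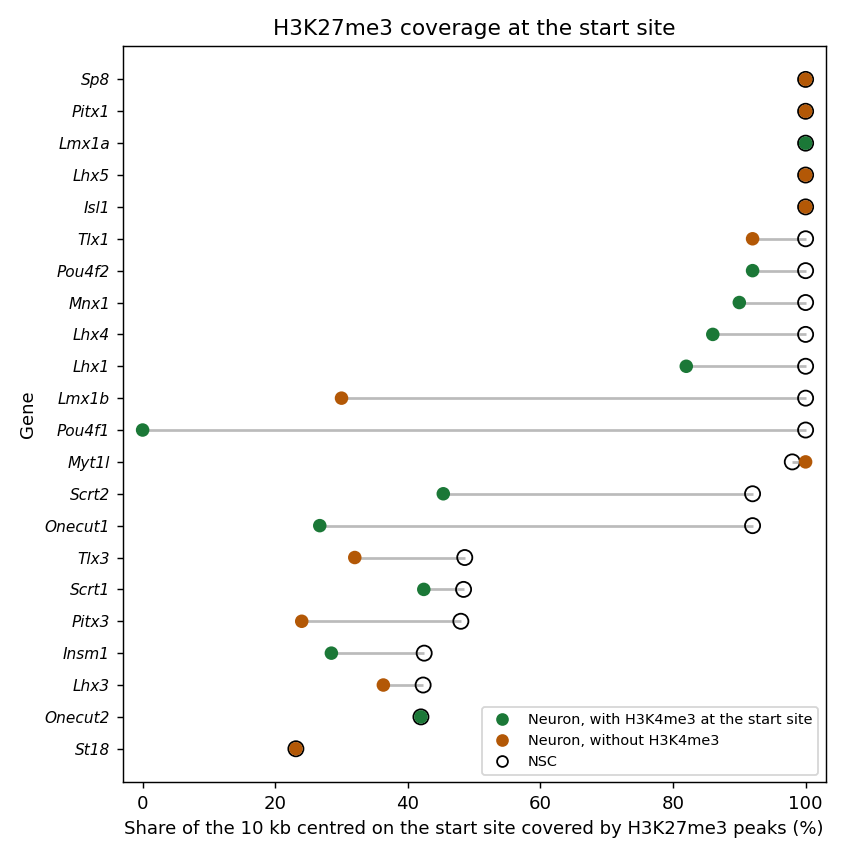
Share of the 10 kb centred on the start site that H3K27me3 peaks cover, for the 22 genes with any coverage. Filled points are neurons, green with H3K4me3 at the start site and orange without, and open circles are NSCs. Coverage at Pou4f1 was 0% in neurons and 100% in NSCs, while Isl1, Lhx5, Lmx1a, Pitx1 and Sp8 had 100% in both.

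Coverage around the start site counts the bases in all called peaks, so the gaps of a split domain lower it. At Lhx1 and Lhx4, whose domains split there, it was 82% and 86% in neurons and 100% in NSCs. Coverage had a median of 28.5% over the 35 genes in neurons and 48.0% in NSCs, and of 0% over all genes in both. At Myt1l coverage was higher in neurons (100% against 98.0% in NSCs), and St18, Onecut2 and the 5 genes fully covered in both were equal. At the remaining 14 of the 22 genes with any coverage (63.6%) it was lower in neurons, close to the 63.2% of all 5549 genes with any. The other shares were unlike those of all genes. Coverage was equal at 7 (31.8%), against 6.92%, and higher in neurons at 1 (4.55%), against 29.8%. The widest differences after Pou4f1 were at Lmx1b, with 30.0% in neurons and 100% in NSCs, and at Onecut1, with 26.7% in neurons and 92.0% in NSCs.

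Of the 15 genes whose start site lay inside an NSC domain, 10 also lay inside one in neurons (66.7%), against 70.3% of all such genes. Among the 7 of these with H3K4me3 in neurons it was 3 (42.9%), against 65.2% of all such genes. Among the 8 without H3K4me3 it was 7 (87.5%), against 71.8%, the exception being Lmx1b. These counts are small and no test was made.

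H3K27me3 reads per kb of domain were lower in neurons at 12 of the 17 genes marked in both cell types. The median ratio of neurons to NSCs was 0.689 for these genes and 1.03 for all 2687 genes marked in both, and 14 of the 17 were below the median of all genes. Dense NSC domains had a lower ratio over all genes as well. Among NSC domains of 30 reads per kb or more the median ratio was 0.641 for 11 genes of the set and 0.754 for all 523. Among those of 10 kb or more it was 0.686 for 14 genes of the set and 0.978 for all 1306. In 114 H3K27me3 peaks with equal bounds the ratio was 0.981 for immunoprecipitated reads and 0.784 for input reads. The width ratio had a median of 0.663 for the 17 genes and 0.662 for all. Width and reads per kb ratios take only the start-site peak of each cell type. More than 1 neuronal peak lay in 12 of the 21 NSC domains of the set (57.1%), against 38.1% for all genes. Among NSC domains of 10 kb or more it was 11 of 17 (64.7%), against 71.4%. In NSCs the domains of the set were wide beside others, with a median of 18600 bp against 8400 bp for all marked genes, and in neurons 14600 bp against 5000 bp.

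Paralogs outside the set were scored in the same way, 22 of the 27 listed, and H3K4me3 was at 12 in neurons and 18 in NSCs, with 6 losses and no gain, where 9.55% of all genes lost it and 0.831% gained it. Over all genes 61.7% carried H3K4me3 in neurons and 70.4% in NSCs. H3K27me3 was at 10 of the 22 in neurons and 11 in NSCs, beside 17.9% and 19.2% of all genes, so it was more frequent at these paralogs too. The LIM genes Lhx6 and Lhx8, of forebrain interneurons, lost H3K4me3 and kept H3K27me3. The Lhx6 domain was 17600 bp with 469 reads over 130 in neurons and 25400 bp with 1002 over 216 in NSCs, and its NSC H3K4me3 peak held 84 reads over 14.

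Genes that work with these factors were scored as well. Of 23 listed cofactors and repressors, such as the LIM adaptor Ldb1 and the REST complex, 22 were scored, and 19 carried H3K4me3 in each cell type, beside 61.7% of all genes in neurons and 70.4% in NSCs. H3K27me3 was at 1 of them in neurons, Lmo3, with 32 reads over 4, and at none in NSCs. Of 20 listed genes for transmitter synthesis and transport 13 were scored, H3K4me3 was at 1 in neurons and 4 in NSCs, and H3K27me3 was at 9 in each, beside 17.9% of all genes in neurons and 19.2% in NSCs. These shares were not tested. Slc6a3, Slc17a7 and Slc6a4, the transporters of dopamine, glutamate and serotonin, lost H3K4me3 and kept H3K27me3. Th, the rate-limiting enzyme of dopamine synthesis, had its nearest H3K27me3 peak 4767 bp from the start site in neurons and 367 bp in NSCs, and no H3K4me3 in either.

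Lists of cell type markers were scored too, though calls at a few promoters do not show which cells were present. Over all genes H3K4me3 was at 61.7% in neurons and 70.4% in NSCs, and H3K27me3 at 17.9% and 19.2%. Of 8 scored neuron markers 4 had H3K4me3 in neurons and 4 in NSCs, with Dcx gained and Syt1 lost. H3K27me3 was at 3 of them in neurons and 5 in NSCs, and Tubb3 and Mapt lost it and kept H3K4me3. All 9 neural stem cell markers had H3K4me3 in neurons, and 7 in NSCs. Pax6 and Sox1 were called in neurons alone, on peaks of 28 and 39 reads. Their nearest NSC peaks lay 5947 and 10154 bp away, with 299 and 49 reads. Astrocyte markers had H3K4me3 at 2 of 5 in neurons and 3 in NSCs, and oligodendrocyte markers at 1 of 2 in each. Klf4, the 1 scored pluripotency marker, had it in both. How far other cells in the sorted population entered the values of the neuronal factor genes was not tested. Reads inside peaks ranged from 983266 in neuron H3K4me3 to 3623654 in NSC H3K4me3, in 14846 to 36053 peaks per library.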

How the data were processed

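Chromatin from sorted neurons and from NSCs was crosslinked with formaldehyde at 1%, cut to fragments near 300 bp and precipitated with each antibody, per the labels' protocols. Bowtie, SICER, SAMtools and FastQC, and the build mm9, are named in the submitters' processing notes. Versions and parameters were not given in the sources used here. With each library the authors deposited a peak list with the counts of immunoprecipitated and input reads per peak, a p-value, a false discovery rate (FDR) and a fold over input, which equals the ratio of the counts times 1 constant per library. The constant was 0.9935 for neuron H3K4me3, 1.024 for NSC H3K4me3, 1.05 for neuron H3K27me3 and 1.398 for NSC H3K27me3. A score column of the deposited gene tables was not used. All listed peaks have an FDR under 0.001, checked on the files.

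The start site is the 5′ end of the gene in the deposited tables. A gene is marked when any listed peak lies within 1000 bp, as bounds are deposited. This was used in place of the table's own pairing, which often names a farther peak and, in the neuron H3K4me3 table alone, goes above an FDR of 1e-20. With 1 library per group there is no test, and depth is known only inside peaks. Named genes are every scored gene, and of the other lists at most 4 whose calls differ, by widest NSC peak; some of these are not reported here. Ldb1 and Klf4, whose calls do not differ, are named outside this rule and were chosen after their values were seen. The genes and lists were chosen with earlier results of these data known. Distances and coverage were tested on simulated data, with 0 of 1000 distances wrong. Alternatives changed the window, peak threshold, pairing, distance for absence and overlap. Python 3.11.15, pandas 2.3.3, numpy 2.4.6 and matplotlib 3.10.9 were used.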

Additional observations from a re-analysis of the deposited data

How the results depend on the processing

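Of 86 comparisons of a count or median with its value under another setting, 61 stayed within 1.5 times, among them all 10 counts with equal numbers of peaks and all 10 without the chromosome 1 genes (29 genes left, an alternative chosen after seeing the data). Percentages in brackets below are shares of all 18778 genes. With a window of 500 bp, H3K27me3 was at 11 genes in neurons (16.3%) with 7 lost (4.69%), and both marks at 4 in neurons (3.59%). With 2500 bp, 1 H3K27me3 loss was left (5.04%). With the peak paired in the deposited table, H3K4me3 was at 12 genes in neurons (51.6%) with 8 lost (10.6%). H3K27me3 was then at 5 in neurons (5.09%) and 13 in NSCs (7.74%) with 8 lost (4.43%). Both marks were at 2 in neurons (0.831%) and 8 in NSCs (2.32%). With an FDR under 1e-20, H3K4me3 was at 14 genes in neurons (40.0%) with 10 lost (26.6%) and 0 gained (0.186%). Of the 35 genes these were 40.0% marked and 28.6% lost, near the shares of all genes. Both marks were then at 3 in neurons (0.559%), and the median H3K4me3 coverage in neurons was 0%, as over all genes. With the start site inside a peak, chosen after seeing the data, H3K4me3 was at 15 genes in neurons (52.2%) with 11 lost (15.6%). H3K27me3 was then at 10 in neurons (13.9%), and both marks at 2 in neurons (2.4%) and 9 in NSCs (5.53%). With absence within 10 kb, 1 H3K4me3 loss (Isl1) and 0 H3K27me3 losses were left, and the share of all genes was not counted. With a reciprocal overlap of 50%, 13 of 21 NSC H3K27me3 domains were overlapped, against 47.1% for all 3598 genes with one. Median H3K4me3 coverage in NSCs was 26%, and 16% over 20 kb, against 20% and 11% over all genes. The causes were not tested, beyond the wider or narrower limits themselves. No paired analysis was possible because each group holds 1 library. At this depth the absence of a peak does not show the absence of a mark.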
